A study of Mus musculus with 4 samples.

Results

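The genes described here are the 3 mouse orosomucoid genes Orm1, Orm2 and Orm3 and 7 other acute-phase genes, Hp, Hpx, Lbp, Crp, Apcs, Itih3 and Itih4. They were taken by the gene name printed in the array files, which found 9 of the 10. The hemopexin gene Hpx stands in those files under the older symbol Hpxn and was matched by its RefSeq accession. The 10 genes are part of 27670 gene labels on the array, and each had 1 probe. They were picked with earlier results in view, so the set was in part selected on the NP over low NP ratios and pool levels that are reported here. Those values are a description, and none is tested.

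Male C57BL/6J mice, 13 weeks old, ate 1 of 2 diets for 4 weeks. The low-NP diet was a purified diet with 0.03% nucleic acids, and the NP diet was the same food with 1.2% of a nucleoprotein preparation (S-nuclegen) added, which brought nucleic acids to 0.5%. The housing text of the labels also names a standard chow, and does not say when it was given. No genetic change is described for any group. RNA of liver and of spleen had been pooled per diet before labelling, which gives 4 pools, each of an unstated number of mice. Every pool was read on 2 two-colour arrays. Array 1 carried the NP pool in Cy5 and the low-NP pool in Cy3, and array 2 had the dyes exchanged. The labels call the arrays a dye swap but also give each orientation its own pooled sample number, so whether both arrays held the same pools is not settled. They were treated as sharing their pools. Under that reading agreement between them covers the labelling and not the animals, and the diets were compared without any test. Dye and pooled sample number cannot be told apart.

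Acute-phase proteins are plasma proteins whose output by hepatocytes changes during inflammation, infection or injury, mostly under interleukin 6, interleukin 1 and glucocorticoids acting through STAT3, C/EBP and NF-kappa B factors. Positive acute-phase proteins rise and negative ones, such as albumin and transthyretin, fall. In mice the serum amyloid A proteins, serum amyloid P (the product of Apcs), haptoglobin, hemopexin and the orosomucoids are among the positive ones, while C-reactive protein moves little in mice compared with humans. Liver is the main source of all 10 products, and haptoglobin is also made by maturing neutrophils.

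The orosomucoid genes carry most of what follows, and their probes are shown because the 3 genes are close relatives that each have a single probe. The 3 probes lie within 18.6 kb of chromosome 4, on the plus strand, by the mm7 positions that the array annotation gives. The 60-base probe of Orm1 is placed at chr4:62779145-62779752 and that of Orm3 at chr4:62791572-62793055, spans of 608 and 1484 bases, so each bridges at least 1 intron. The probe of Orm2, at chr4:62797641-62797700, lies in a single stretch. The letters are given in lower case because no base is singled out, and cross-hybridisation between the 3 transcripts was not tested.
Orm1: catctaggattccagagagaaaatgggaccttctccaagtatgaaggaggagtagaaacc
Orm2: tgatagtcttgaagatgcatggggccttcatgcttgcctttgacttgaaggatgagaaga
Orm3: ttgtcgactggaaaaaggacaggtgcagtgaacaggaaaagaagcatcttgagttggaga

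Other members are neighbours too. The probes of Crp and Apcs, which encode the short pentraxins, lie within 197 kb on chromosome 1, and those of Itih3 and Itih4 lie within 12.0 kb of chromosome 14. The probe of Lbp, on chromosome 2, also bridges an intron. The Hp probe is on chromosome 8 and the Hpx probe on chromosome 7.

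Ratios divide NP by low NP and are on the log2 scale. Each is the mean of the 2 arrays, and the value after ± is the distance of either array from it. The deposited value table runs the opposite way, low NP over NP. Calls needed a difference of 1.5-fold or more with one sign on each of the arrays. Every member could be called in both tissues, since on each array its probe stood well above background in 1 channel or more, and none of their spots was saturated. Levels are normalized log2 signals per pool. They compare the pools for 1 probe, and no probe is set against another.

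The low-NP pools also gave signal for markers of the other tissue, and this bears on every spleen value below. Where that signal came from was not tested. The 12 hepatocyte markers separated the NP pools, at 0.20% to 1.37% of the NP liver level in NP spleen. In low-NP spleen the same markers were at a median of 26.8% of the NP liver level, from 16.8% for Tat to 221% for Fabp1. Their summed normalized signal was 876000 and 661000 in low-NP spleen on arrays 1 and 2, and 12800 and 4940 in NP spleen. Such a sum leans on the brightest spots, here Fabp1, at log2 levels of 18.84 and 18.05 in low-NP spleen. The 8 B cell markers were at a median of 19.3% of the NP spleen level in low-NP liver and of 2.73% in NP liver. Array 1 of spleen also stood apart from the other 3 arrays. Its negative-control spots had median signals of 156 (Cy3) and 307 (Cy5), against 62.7 to 74.0 elsewhere, and 93.3% and 94.8% of its spots were well above background, against 59.3% to 68.0%. Each array is therefore shown on its own.

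The first comparison was of the liver pools, NP against low NP. Orm3 was higher in NP liver, at 4.34-fold on array 1 and 8.38-fold on array 2, and was the only member called. Orm2, Apcs, Orm1 and Itih3 followed with ratios between 0.55 and 0.89 that did not reach 1.5-fold on both arrays. Hp had opposite signs on the arrays. Of all 16967 genes measured in liver, 12 were called higher (0.0707%) and 620 lower (3.65%), against 1 and 0 of the 10 members. With the scanner software's processed signals the liver counts over all genes were 297 higher and 1745 lower.

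The orosomucoids are small acidic plasma glycoproteins that bind basic and lipophilic compounds and dampen inflammation. The level of Orm3 was 11.78 and 11.92 in NP liver on arrays 1 and 2, and 9.67 and 8.85 in low-NP liver. In unprocessed mean signals this was 3756 against 194 on array 1 and 1817 against 515 on array 2. NP was the brighter channel in either dye, and the 2 pools did not overlap. The ratio was 2.59 ± 0.47, rank 4 from the highest among measured genes. With the scanner software's processed signals it was 3.68.

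Orm2 had levels of 14.77 and 15.13 in NP liver and of 14.24 and 13.88 in low-NP liver. Its ratio of 0.89 ± 0.36 had rank 10. It was 1.45-fold on array 1 and 2.38-fold on array 2, and with median centring it was called. Orm1 was at 14.58 and 14.77 in NP liver and at 14.26 and 13.98 in low-NP liver. The arrays of the 2 diets did not overlap for either gene, and the ratio of Orm1 was 0.55 ± 0.24. On either array the ratio was largest for Orm3 (2.12 and 3.07), next for Orm2 (0.53 and 1.25) and smallest for Orm1 (0.32 and 0.79). That difference between paralogs was not tested.

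**Figure D1:**
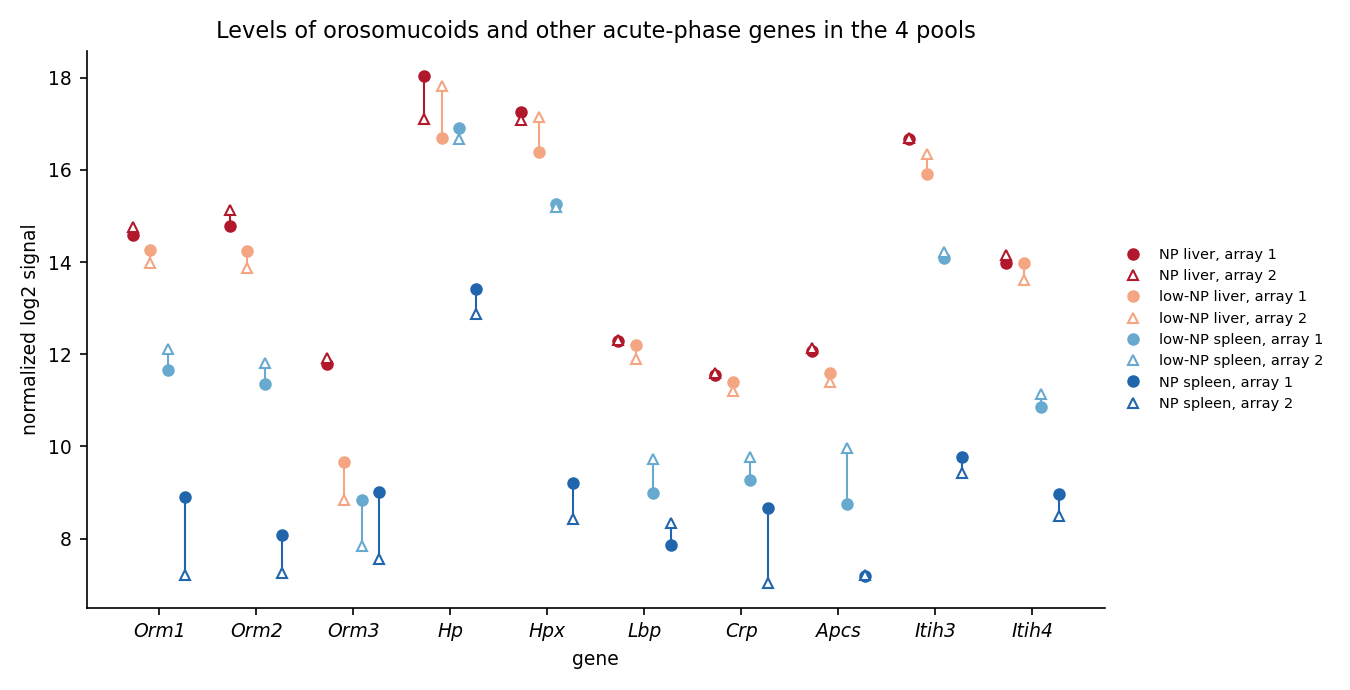
Normalized log2 signal of the 10 genes in the 4 pools, with array 1 as filled circles, array 2 as open triangles and a line joining the 2 arrays. Orm3 is near 12 in NP liver and below 10 in the other 3 pools, while the other genes have their second lowest level in low-NP spleen and their lowest in NP spleen.

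Haptoglobin, the product of Hp, binds free haemoglobin, and hemopexin, the product of Hpx, binds free haem. Hp was 2.54-fold higher in NP liver on array 1 and 1.65-fold lower on array 2, so that its mean of 0.31 ± 1.03 has no settled direction. The levels were 18.04 and 17.10 in NP liver and 16.69 and 17.82 in low-NP liver. The unprocessed Cy5 signal was the larger on each array, 481663 and 413122 against 47504 and 79524 in Cy3, as it was for all members except Orm3 before normalization. Hpx was at 0.86 on array 1 and -0.07 on array 2, and its liver pools overlapped. These genes, with Itih3, were the 3 members with a larger ratio on array 1, and the other 7 had the larger ratio on array 2.

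Lbp encodes the lipopolysaccharide binding protein, which hands bacterial lipid to CD14 and TLR4. Crp and Apcs encode pentraxins that bind microbes and cell debris. Apcs was at 12.07 and 12.13 in NP liver and at 11.60 and 11.40 in low-NP liver, a ratio of 0.60 ± 0.13 of rank 20 that reached 1.5-fold on array 2 alone. Crp (0.27 ± 0.12) and Lbp (0.26 ± 0.16) were above 0 on both arrays and past 1.5-fold on neither. The pools did not overlap for any of these genes, and the differences for Crp and Lbp were small, at 1.21-fold and 1.20-fold.

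Itih3 and Itih4 encode heavy chains of the inter-alpha-trypsin inhibitor family, and heavy chain 3 is carried on hyaluronan in the extracellular matrix. Itih3 was at 0.75 on array 1 and 0.35 on array 2, and was called with the scanner software's processed signals. Itih4 was at -0.01 and 0.55, so its liver pools overlapped. Taking the 10 genes as a group, 7 were above 0 on both liver arrays and 3 (Hp, Hpx and Itih4) had opposite signs. The share of all measured genes above 0 on both arrays was not counted. By the mean of the arrays, all 10 members were above 0, as were 8513 of 16967 measured genes and 8 of 12 hepatocyte markers. The median of the members was 0.47, against 0.00078 for all measured genes and 0.026 for the 12 hepatocyte markers. Relative to the median of those markers on the same array, an alternative added after the data were seen, Orm3 was at 2.60, Orm2 at 0.90 and Orm1 at 0.56.

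**Figure D2:**
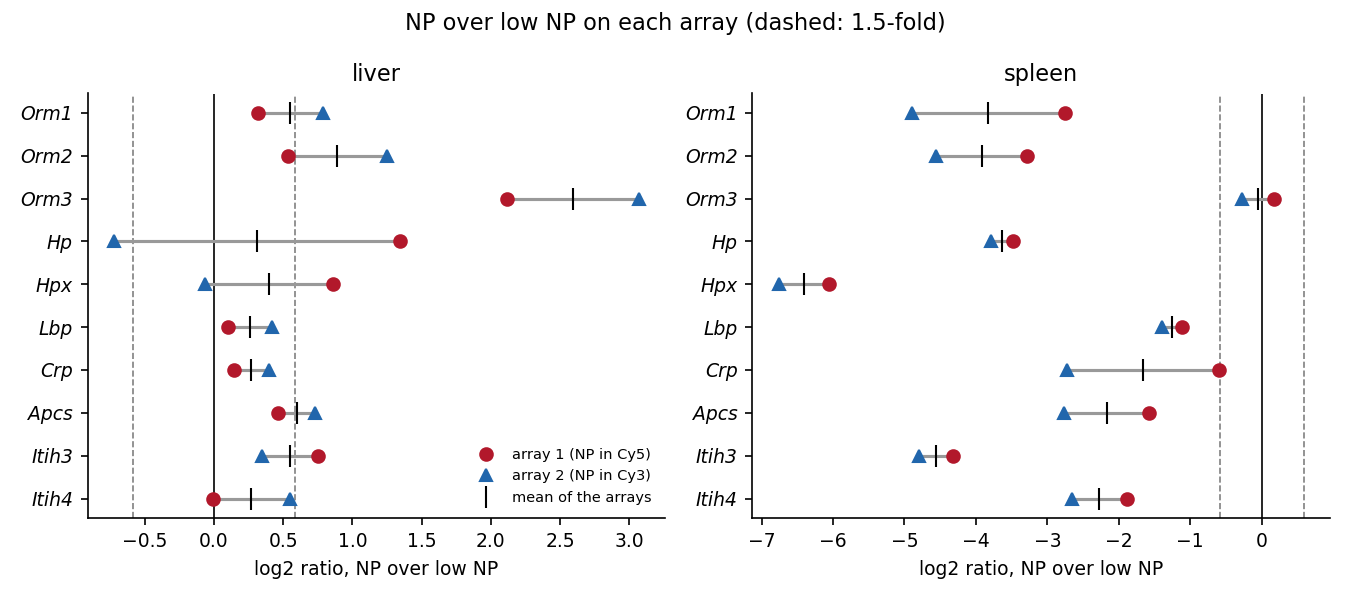
Log2 ratio of NP over low NP for each gene in liver and spleen, with array 1 as circles, array 2 as triangles, the mean as a black tick, and 1.5-fold as dashed lines. In liver Orm3 alone lies past 1.5-fold on both arrays, and Hp lies past it on opposite sides. In spleen 9 genes lie below it on both arrays and Orm3 lies near 0.

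Other genes of the response, from lists that were also drawn up with earlier results known, moved unevenly in liver. All 3 measured serum amyloid A genes were called higher, with a median of 2.65, close to the ratio of Orm3. Of 21 other positive acute-phase genes, 3 were called higher and 0 lower, with a median of 0.14. Those called were the metallothionein genes Mt2 (1.72 ± 0.17) and Mt1 (1.44 ± 0.05), which encode zinc-binding proteins, and Lcn2, the lipocalin 2 gene (1.15 ± 0.54). Among those not called were the fibrinogen gene Fgb, at 1.08 on array 1 and -0.90 on array 2, and the complement gene C3, at 1.00 and -0.75. Of 9 negative acute-phase genes 0 were called, and their median was -0.084 (0.50 on array 1 and -0.23 on array 2). With median centring in place of loess its sign turned, to 0.37, and the medians were 0.77 for the members, 0.50 for the other positive acute-phase genes and 0.41 for the hepatocyte markers, against 0.057 for all measured genes.

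The measured genes upstream of the response were not called higher. Among 18 measured genes of interleukin 6, interleukin 1 and TNF signalling, 0 were called and the median was -0.069 (0.051 with median centring). The list had 20 genes on the array. Il6, the interleukin 6 gene itself, and Osm were not among those measured in liver, so they could not be called there. Nfkbia, an inhibitor of NF-kappa B that is itself induced by it, was at -0.61 ± 0.17. Of 8 liver transcription factors that act on acute-phase promoters 0 were called, with a median of 0.16 and Foxa2 the highest at 0.53 ± 0.14. Of 10 measured receptors and partners of the member proteins, 1 was called, lower: Hmox1, the inducible haem oxygenase that breaks down the haem which hemopexin delivers, at -1.57 ± 0.09. Low-NP liver also held more spleen markers, with 4 of 8 macrophage markers and 7 of 8 B cell markers called lower in NP liver. Their part in the value of Hmox1 was not tested, and in pooled tissue RNA fewer cells of a type and less RNA per cell cannot be told apart.

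**Figure D3:**
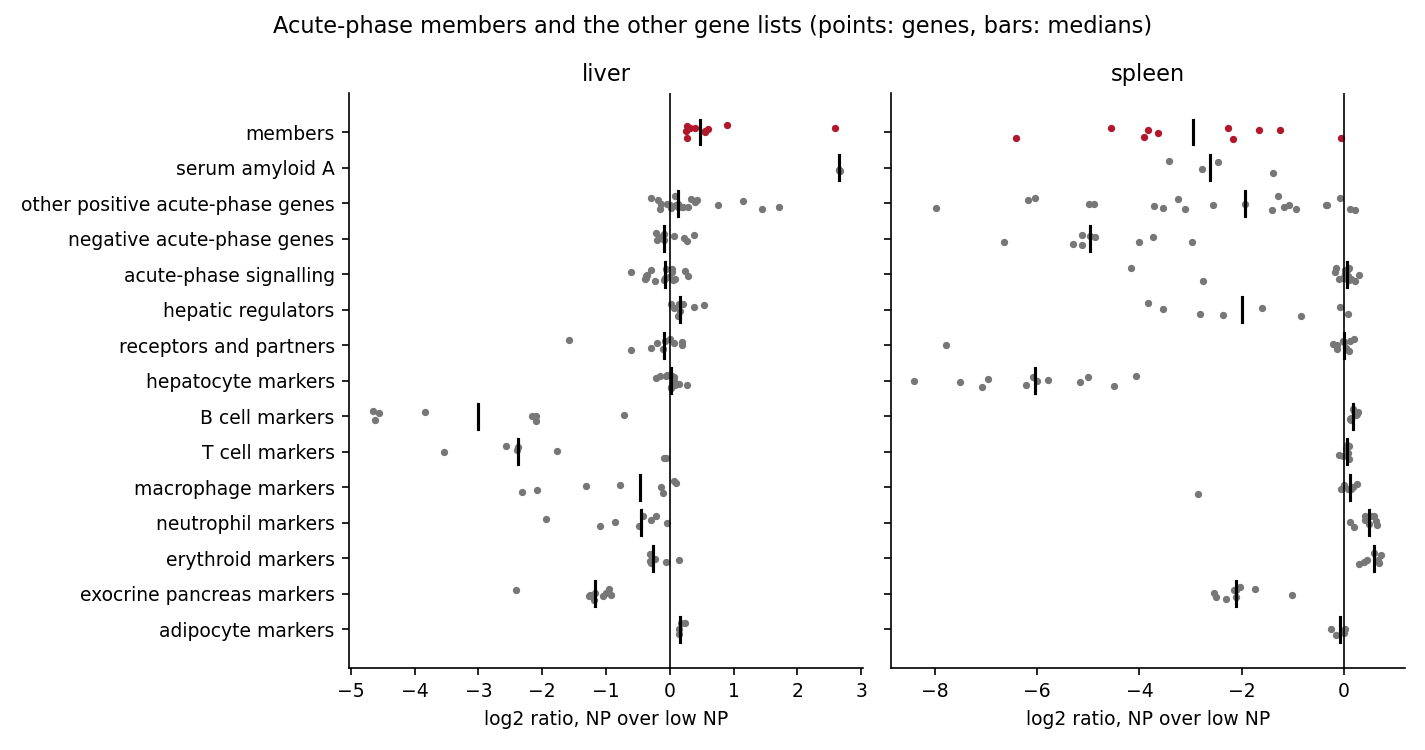
Log2 ratio of NP over low NP, mean of 2 arrays, for each measured gene of the acute-phase members (red) and of the other lists (grey), with list medians as black bars. In liver the members lie at or above 0.26 and the serum amyloid A genes near 2.65. In spleen most acute-phase genes and the 12 hepatocyte markers lie below 0.

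The second comparison was of the spleen pools. Of the 10 genes, 9 were called lower in NP spleen and 0 higher, while Orm3 was not called. Over all 18409 measured genes 1170 were called lower (6.36%) and 8 higher (0.0435%). The same direction held for all 12 hepatocyte markers, called lower with a median of -6.04, for 9 of 9 negative acute-phase genes (-4.96) and for 16 of 21 other positive acute-phase genes (-1.93). Low-NP spleen thus held more of these transcripts whichever way they move in an acute-phase response. Relative to the median of the hepatocyte markers on the same array, the alternative used above for liver, 9 members were called higher, from 1.49 for Itih3 to 5.99 for Orm3, and 0 lower, with Hpx at -0.37. Because that median was -6.04, against -0.016 for all measured genes, a gene with no difference also lies far above 0 on this scale. The share of all measured genes called this way was not counted. The 9 calls are therefore not read as particular to the members. The part that any hepatocyte RNA had in these values was not tested further.

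Hpx had the widest gap. Its level was 15.27 and 15.19 in low-NP spleen on arrays 1 and 2, and 9.21 and 8.43 in NP spleen, a ratio of -6.41 ± 0.35. Itih3 was next, at 14.08 and 14.22 against 9.77 and 9.42 (-4.55 ± 0.24). Neither gene's pools overlapped. The fold was 66.6 and 108 on arrays 1 and 2 for Hpx, and 19.9 and 27.7 for Itih3.

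Orm2 was at 11.36 and 11.81 in low-NP spleen and at 8.08 and 7.25 in NP spleen (-3.92 ± 0.64). Orm1 was at 11.66 and 12.12 against 8.91 and 7.22 (-3.83 ± 1.07). Array 2 gave the larger difference for both, 23.5-fold for Orm2 and 29.8-fold for Orm1, against 9.71-fold and 6.74-fold on array 1. In all 10 genes the ratio on array 1, the array with the high negative controls, lay above that on array 2. On array 2 the NP spleen levels of both genes lay below 7.40, the median of the probes not well above background in that channel.

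Orm3 differed from its paralogs. In low-NP spleen it was at 8.83 and 7.84, and NP spleen differed from this by 0.17 on array 1 and by -0.28 on array 2. The pools overlapped and the ratio was -0.06 ± 0.22, with the opposite sign (0.19) under median centring. On array 2 the NP spot was not well above background, and the low-NP spot, at a mean signal of 119, was. With the scanner software's processed signals the ratio was -0.95.

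Hp was at 16.91 and 16.67 in low-NP spleen and at 13.43 and 12.88 in NP spleen (-3.63 ± 0.15). Unlike in liver, the arrays had the same sign, at 11.2-fold and 13.8-fold. Neutrophil markers went the other way, with 9 of 9 above 0 in spleen, a median of 0.50 (0.24 with median centring) and 0 called. Their summed signal was 168000 and 186000 in NP spleen against 104000 and 130000 in low-NP spleen. This was not particular to neutrophils. Also above 0 were 8 of 8 B cell, 5 of 7 T cell, 6 of 8 macrophage and 7 of 7 erythroid markers, and 8328 of 18409 measured genes. The part of neutrophils in the level of Hp was not tested.

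Among the pattern-recognition genes, Apcs was lower by 2.97-fold and 6.79-fold, Lbp by 2.18-fold and 2.62-fold and Crp by 1.52-fold and 6.58-fold on arrays 1 and 2. Itih4 was at -2.27 ± 0.38. The call of Crp was lost without background correction and with median centring. In NP spleen on array 2 the spots of Crp, Apcs and Orm3 were not well above background, so only array 1 passed that mark for them in that pool. The level of Apcs there, 7.18, stood beside a median of 7.06 for the probes not well above background in that channel of array 1. With the scanner software's processed signals, to which no offset was added, the ratios were larger for Crp (-3.55), Apcs (-3.44), Orm2 (-4.53) and Orm1 (-4.51).

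The low-NP spleen level was then expressed as a percentage of the liver level, probe by probe. Relative to NP liver it was 8.77% for Orm3, 9.71% for Orm2, 11.9% for Itih4, 13.0% for Lbp, 14.5% for Orm1 and 15.0% for Apcs. By the mean of the arrays these 6 genes lay below all 12 hepatocyte markers, of which Tat was the lowest at 16.8%. Itih3 (17.3%), Crp (24.1%) and Hpx (26.1%) lay below the marker median of 26.8%, and Hp (58.2%) lay above it. On array 1 the same 6 genes lay below Tat (14.3%), and Hpx (25.3%) lay just above the marker median of 25.1%. On array 2 Apcs (22.5%) lay above Tat at 19.8%, and Itih3 (17.9%) lay below it.

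Relative to low-NP liver, the liver pool of the same diet, the percentages were higher for all members by the mean of the arrays. They were 14.4% for Itih4 and 15.5% for Lbp, the only 2 members below the lowest marker, Tat at 17.0%. Orm2 (18.0%), Orm1 (21.3%), Apcs (22.7%) and Itih3 (25.3%) lay below the marker median of 28.8%, and Crp (29.0%) and Hpx (34.3%) above it. These places changed between the arrays. On array 1 Itih4 (11.4%), Lbp (10.9%), Orm2 (13.6%) and Apcs (13.8%) lay below Tat at 16.4%. On array 2 no member lay below Tat (17.7%), with Itih4 at 18.2% and Lbp at 22.1%. There Apcs (37.3%) lay above the marker median of 29.4% and Hpx (25.7%) below it. Orm3 went from 8.77% to 52.9%, the largest shift, since its level differed most between the liver pools. Its low-NP spleen level of 7.84 on array 2 stood beside a median of 7.38 for probes not well above background there. Hp was at 72.2% over both arrays, with 116% on array 1 and 44.9% on array 2. The percentages compare levels across arrays and share the normalization of those arrays, and the differences from the markers were not tested.

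**Figure D4:**
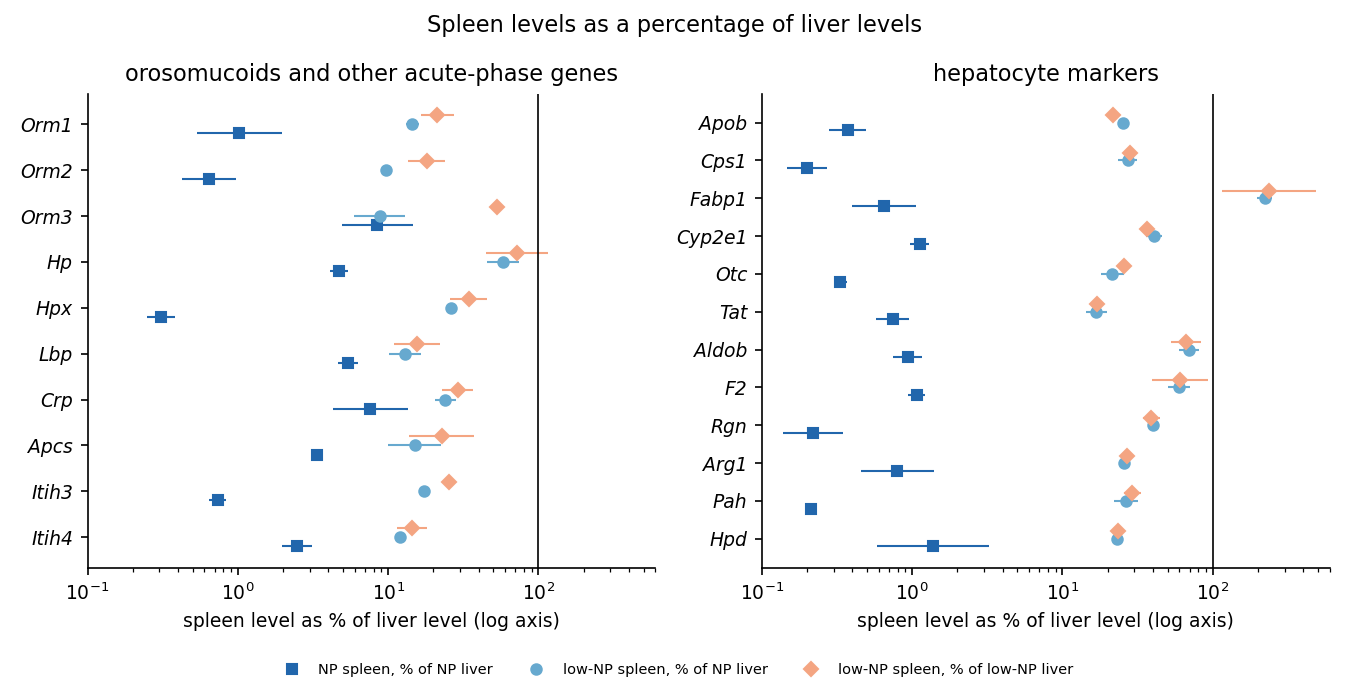
Spleen level as a percentage of the liver level on a log axis, for the 10 genes and the 12 hepatocyte markers, with a point for the mean of the log2 levels and a line from array to array. NP spleen lies between 0.307% and 8.44% of NP liver for the members, and low-NP spleen between 8.77% and 58.2%.

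By mean level all 10 genes had the order NP liver, low-NP liver, low-NP spleen, NP spleen. The neighbours in this order overlapped between arrays for the liver pools of Hp, Hpx and Itih4, for low-NP liver and low-NP spleen of Hp, and for the spleen pools of Orm3. NP liver and NP spleen, the pools with the lower levels of the other tissue's markers, differed by 8.35 for Hpx, 7.28 for Orm2, 7.09 for Itih3 and 6.61 for Orm1 on the log2 scale. The difference was 5.34 for Itih4, 4.90 for Apcs, 4.41 for Hp, 4.20 for Lbp, 3.72 for Crp and 3.57 for Orm3. In NP spleen on array 2, Orm1 (7.22), Orm2 (7.25), Crp (7.05) and Apcs (7.21) lay below 7.40. That was the median of probes not well above background in that channel, and the Orm3 spot was not well above background either. Background limits how large these differences could be, so they are not ranked between genes.

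The genes most like each orosomucoid were found by the Euclidean distance over 8 channel levels, centred per gene, among 16484 genes. Nearest to Orm1 were Abcg5 (0.50), Cyp3a25 (0.52) and Glyat (0.55), and nearest to Orm2 were Fgl1 (0.82), Dio1 (0.89) and Apon (0.94). Orm1 and Orm2 lay 0.96 apart. Orm3 had no near neighbour, its closest being LOC638251 (2.11), Lrtm1 (2.26) and Prox1 (2.32), and it lay 5.39 from Orm1 and 5.75 from Orm2. These distances rest on 4 pools and are a description.

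Promoters from RefSeq (GRCm38.p6) were at hand for 7 of the 10 genes, as windows of 300 bases from 250 before to 50 after the gene start. Orm2 and Orm3 are shown because their liver and spleen ratios differ although their windows align with 89.2% identical bases. The 150 bases before the start are printed, on the plus strand, at chr4:63362299-63362448 for Orm2 and at chr4:63356008-63356157 for Orm3, with matches to the searched motifs in capitals.
Orm2: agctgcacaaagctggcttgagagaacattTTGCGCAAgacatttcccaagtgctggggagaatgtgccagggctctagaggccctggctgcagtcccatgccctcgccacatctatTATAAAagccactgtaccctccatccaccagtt
Orm3: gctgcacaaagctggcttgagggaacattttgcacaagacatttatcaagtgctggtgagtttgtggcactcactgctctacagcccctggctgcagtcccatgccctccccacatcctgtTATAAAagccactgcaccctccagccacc

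Motifs were searched on both strands. The C/EBP palindrome TTGCGCAA was found in Orm2, 120 bases before the start, and in 0.183% of 32851 promoters of the same length. The aligned bases of Orm3 differ from it by G5A, counted from the 5′ end of the match in Orm2. The TATA box TATAAA was found in 5 of the 7 member windows and in 13.6% of all. It lay 33 bases before the start in Orm2, 29 in Orm3 and 31 in Crp. The Itih3 match lay 3 bases after the start, and the Itih4 match 3 bases before it on the minus strand. The STAT3 motif TTCNNNGAA was found in Apcs and Itih4 and in 8.30% of all. The C/EBP motif TTNNGCAAT had no match in these 7 windows and was found in 2.18% of all. The glucocorticoid receptor, HNF1 and kappa B consensus motifs had none either. No 2 motifs overlapped in these windows. A match is a description of letters, and its use in these livers was not measured.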

How the data were processed

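Spot intensity in Cy3 and Cy5 (mean foreground, median local background, and a processed signal) was deposited as scanner output. The submitters' processing notes name Agilent Feature Extraction 9.5.3.1. Those files also hold a log10 ratio of Cy5 over Cy3 from the processed signals, per the file headers. A deposited table of log10 ratios comes with no stated method. Its columns correlated with the scanner ratio at -0.992, 0.991, -0.993 and 0.998, so it runs as low NP over NP, opposite to the direction used here. Its medians were 0.02, -0.07, -0.01 and -0.04, so it is not centred.

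Lone carriage returns in the files were split. In limma 3.58.1 (R 4.3.3) mean signals were corrected with normexp (offset 50) and log ratios normalized by loess within each array, with no weight for the 1639 control spots and the 109 to 180 outlier spots of each array's 45018. Replicate spots were averaged and ratios turned to NP over low NP. Levels per channel followed loess and Aquantile. The offset keeps ratios of dim spots small. Of 41174 probes, 22951 were named by accession, 6659 by symbol and 3109 by synonym through RefSeq (GRCm38.p6, names only), and 8455 kept the file's name. Each gene was read from its brightest probe.

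Members and lists were chosen with earlier results of these data known. The text names all members, up to 4 genes of a list with the largest value of the smaller absolute array ratio, and the 3 genes nearest to each orosomucoid. Lcn2, Tat and Fabp1 are named beside them as list members whose values the text needs, and Il6 and Osm as list members not measured in liver. Protein sequences were not used here. The number of arrays limits the precision. Alternatives were no background correction, processed signals, median centring, single arrays, other filters and folds, and the value table. Further steps ran in Python 3.11.15 (pandas 2.3.3, numpy 2.4.6, matplotlib 3.10.9).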

Additional observations from a re-analysis of the deposited data

Results flagged for a closer look

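For 6 of the 10 genes every liver array lay above 0 and every spleen array below 0. The share of all measured genes with this pattern was not counted, so the count is not read as particular to the members. By the mean of the arrays, 8513 of 16967 measured genes were above 0 in liver and 10081 of 18409 below 0 in spleen. All 12 hepatocyte markers and 9 of 9 negative acute-phase genes were called lower in spleen too, against 6.36% of all measured genes. For the 6 genes the liver ratio minus the spleen ratio, on the log2 scale, was 4.38 for Orm1, 4.81 for Orm2, 1.51 for Lbp, 1.93 for Crp, 2.76 for Apcs and 5.10 for Itih3. These differences were not tested. In liver none of these 6 genes was called. Relative to the hepatocyte markers the spleen ratios of all 6 were above 0, from 1.49 for Itih3 to 4.79 for Lbp. That reference was -6.04 in spleen, so any gene with a mean ratio above it lies above 0. The median of the negative acute-phase genes (-4.96) does so too, and these signs are not read as a likeness to liver.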

How the results depend on the processing

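No paired analysis was possible because the result comes from no test, and pooled sample number goes with dye orientation. Whether the 2 arrays of a tissue share their pools is not settled by the labels. Among the members, Orm3 was called higher in liver under each setting, with Itih3 in addition with processed signals (2 genes) and Orm2 with median centring (2 genes). Single liver arrays gave 4 to 4 members higher (Orm3, Hp, Hpx and Itih3 on array 1, Orm1, Orm2, Orm3 and Apcs on array 2) and 0 to 1 lower (Hp on array 2). In spleen between 7 and 9 members were called lower under each alternative except the one relative to the hepatocyte markers, added after the data were seen. There 0 were lower and 9 higher, because that subtracts the median of the markers (-6.04), which also lifts genes with no difference between the diets. Among these 9 were Orm1 at 2.22, Orm2 at 2.13, Hp at 2.41, Lbp at 4.79, Crp at 4.38, Apcs at 3.88, Itih3 at 1.49 and Itih4 at 3.77. Over all genes the liver counts of higher and lower were 12 and 620. They became 297 and 1745 with processed signals, 6 and 296 at 2-fold, and 86 to 345 and 700 to 1941 on single arrays, with 1328 lower without background correction and 324 lower with median centring. The spleen counts were 8 and 1170. Higher calls became 48 with processed signals, 3 with median centring, 1 at 2-fold and 50 to 225 on single arrays, and lower calls 772 at 2-fold. The causes were not tested. Processed signals moved the median of all genes to 0.11 in liver and 0.10 in spleen, and median centring moved it to -0.15 in spleen. Signal over background limits Orm3, Crp and Apcs in NP spleen.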

Other observations

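Exocrine pancreas markers, as a further tissue that neither label names, had a summed signal of 1290000 and 1170000 in low-NP spleen on arrays 1 and 2, against 349000 and 193000 in NP spleen. In liver it was 343000 and 326000 in the low-NP pool and 164000 and 141000 in the NP pool. All 9 markers were called lower with NP in either tissue, against 3.65% of all measured genes in liver and 6.36% in spleen. The 7 T cell markers were at a median of 22.7% of the NP spleen level in low-NP liver and of 4.31% in NP liver. Erythroid markers were called higher in NP spleen in 3 of 7 cases, against 8 of 18409 measured genes (0.0435%). Their median was 0.60, and 0.42 with median centring.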
